A study of Mus musculus with 2 samples.

Results

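The transcripts of 10 genes were followed through the CD45-positive cells of the aortic adventitia: the TREM receptors *Trem1*, *Trem3* and *Treml4*, the adaptor *Tyrobp*, and the CD300 receptors *Cd300a*, *Cd300c2*, *Cd300e*, *Cd300lb*, *Cd300ld* and *Cd300lf*. They were found by symbol among the 55386 features of the deposited matrices, and all 10 were present in both libraries. The levels of *Trem1* and *Cd300lf* were highest in neutrophils, those of *Treml4* and *Cd300e* in nonclassical monocytes, while *Cd300ld* was the receptor with the highest level in steady-state macrophages. On angiotensin II (AngII), *Cd300c2* was several-fold higher in both macrophage classes that the 2 libraries shared. *Trem1* and *Cd300lf*, at 0 UMIs in steady-state macrophages, were then at low levels there, which for *Trem1* in both shared classes and *Cd300lf* in resident macrophages overlapped the level in AngII B cells.

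TREM and CD300 proteins are cell-surface receptors of myeloid cells with a single immunoglobulin-like domain outside the cell. The activating ones have a short tail and signal through a partner in the membrane, most often DAP12, the product of *Tyrobp*, whose ITAM motif recruits the kinase SYK. The inhibitory CD300 receptors carry ITIM motifs in their own tail, which recruit phosphatases. Several CD300 receptors bind lipids exposed on dying cells, and TREM-1 is known as an amplifier of inflammatory responses in neutrophils and monocytes.

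All mice were of the strain RankCreRosa26eYFP and 16 weeks old. In this line, Cre is driven by the *Rank* gene and switches on an eYFP reporter, *Yfp*, which the study used to mark macrophages of yolk-sac origin. The steady-state group was untreated, with cells of 3 animals pooled, and the AngII group received 1.8 µg per kg and min for 10 days by osmotic pump, with cells of 2 animals pooled. Each group was 1 droplet library of sorted viable CD45-positive cells, so animals cannot be told apart, no replicate error exists, and no p-value is given. The effect of the treatment cannot be told apart from differences between the libraries or animals.

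The steady-state matrix held 346 barcodes and 4009678 unique molecular identifiers (UMIs, 1 per captured transcript), and the AngII matrix held 4419 barcodes and 20481854 UMIs, with 0 barcodes shared. The filter of the study, 300 to 6500 genes and at most 5% mitochondrial UMIs, left 306 and 4198 cells. Median depth was 9105 UMIs per cell at steady state and 1092 on AngII. *Ptprc*, the gene of CD45, was found in 93.8% and 63.6% of these cells at 912 and 830 CPM. Levels are given in CPM, counts scaled to the total of all UMIs of a class and added up over its cells, and a share is the percentage of cells with at least 1 UMI. The 95% intervals are exact and hold only the error of counting.

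Cells were placed in classes by marker genes that include none of the 10 members, and a class name here stands for cells that carry those markers. Resident macrophages carry *Lyve1*, *Folr2* and *Cd163*, Arg1 Spp1 macrophages carry *Arg1* and *Spp1*, and all further macrophages are called other macrophages. A class is a range of a score: 43 of 306 and 590 of 4198 cells lay within 0.25 of the cut, while 45 (14.7%) and 2022 cells (48.2%) reached no class. Markers held back for checking were higher in their class than in the rest for each AngII class. At steady state the exceptions among classes of at least 5 cells included *Cd36* in nonclassical monocytes and *Ifitm1* in type-2 dendritic cells. The steady-state neutrophils were 5 cells, 2 of which also carried markers of another lineage, and Arg1 Spp1 macrophages were 1 cell, so that class has no steady-state value.

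The genes lie in 3 places of the mouse genome (GRCm38, GENCODE M21). *Trem1*, *Trem3* and *Treml4* follow one another on chromosome 17 from 48232768 to 48275360, a stretch of 42.6 kb. The 6 CD300 members lie within 244 kb of chromosome 11, from 114890041 to 115133992, and *Tyrobp* is on chromosome 7 from 30413760 to 30417585. No exon of a member overlapped an exon of another gene. Of the 1271 exonic 50-base windows of *Cd300c2*, 91 (7.16%) also occur in *Cd300a*, and 3.89% of those of *Cd300ld* occur in *Cd300lf* or in *Cd300ld2* to *Cd300ld5*. The transcript reads of the study were longer than a window, so a shared window does not show that its reads cannot be told apart. For *Trem1*, *Trem3*, *Treml4*, *Tyrobp*, *Cd300e* and *Cd300lb* no window was shared.

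RefSeq promoters (GRCm38.p6) matched 8 of the 10 members, all but *Trem3* and *Tyrobp*. The 150 bases before the RefSeq start are shown for the pair highest in neutrophils and the pair highest in nonclassical monocytes, since members of a pair shared their pattern over classes. They are written 5′ to 3′ on the strand of the gene, and capitals mark a PU.1-type motif, GAGGAAG, which reads CTTCCTC on the other strand. They are *Trem1* at chr17:48232589-48232738 (+), *Cd300lf* at chr11:115133993-115134142 (−), *Treml4* at chr17:48264145-48264294 (+) and *Cd300e* at chr11:115062040-115062189 (−). For *Cd300e* the GENCODE gene reaches to 115062177, so most of the stretch before its RefSeq start lies inside the GENCODE gene.
Trem1: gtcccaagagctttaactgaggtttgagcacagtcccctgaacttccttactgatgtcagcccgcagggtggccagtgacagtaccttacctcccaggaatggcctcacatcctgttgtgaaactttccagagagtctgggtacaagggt
Cd300lf: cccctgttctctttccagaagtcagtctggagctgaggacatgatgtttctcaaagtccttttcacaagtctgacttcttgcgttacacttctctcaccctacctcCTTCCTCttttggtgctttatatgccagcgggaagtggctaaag
Treml4: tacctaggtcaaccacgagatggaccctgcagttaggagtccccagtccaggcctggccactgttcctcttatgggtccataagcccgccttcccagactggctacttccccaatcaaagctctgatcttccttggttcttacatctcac
Cd300e: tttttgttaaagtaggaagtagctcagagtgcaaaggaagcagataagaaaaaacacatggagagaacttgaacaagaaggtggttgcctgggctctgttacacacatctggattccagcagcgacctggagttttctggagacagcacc
In the 250 bases before the start, searched on both strands, GAGGAAG was found in *Cd300a*, *Cd300ld* and *Cd300lf*, 3 of the 8 members, and in 10.6% of 32851 promoters. A C/EBP-type motif, TTGCNNAA, was found in *Cd300a* and in 9.56% of promoters. An AP-1-type motif, TGANTCA, was found in none of the 8 members and in 6.75% of promoters. Of the 4 promoters shown, only that of *Cd300lf* held one of these motifs in the 150 bases.

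*Trem1*, the amplifying receptor of neutrophils and monocytes, and *Cd300lf*, an inhibitory receptor with ITIMs, were highest in AngII neutrophils among the 12 classes with at least 20 cells. Neutrophils held 402 CPM of *Trem1* (362 to 445, 292 cells) and classical monocytes 88.02 CPM (72.9 to 105). *Cd300lf* was at 476 CPM (432 to 523) in neutrophils, followed by 89.5 CPM (74.3 to 107) in classical monocytes and 87.9 CPM (71.4 to 107) in Arg1 Spp1 macrophages, whose intervals overlap. Neutrophils thus stood apart from the next class for both genes, by intervals that do not overlap. Their ratio to all other AngII cells was 15.1 (13.1 to 17.4) for *Trem1* and 10.9 (9.62 to 12.2) for *Cd300lf*. Against all other cells, 6 of 10 members were at least 2-fold higher in AngII neutrophils, where 9.05% of genes were higher and 14.9% lower: *Trem1*, *Cd300lf*, *Trem3*, *Treml4*, *Cd300ld* and *Tyrobp*. Neutrophils made up 6.96% of AngII cells and held 368 of 822 *Trem1* UMIs (44.8%) and 436 of 1186 *Cd300lf* UMIs (36.8%).

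Neutrophils also had the highest level of both genes at steady state, where they were few. All 5 cells held UMIs of both genes, at 224 CPM of *Trem1* (112 to 401) and 265 CPM of *Cd300lf* (141 to 453). *Trem1* was at 61.4 CPM and *Cd300lf* at 28.6 CPM in the 14 classical monocytes, and at 31.4 CPM each in the 12 nonclassical monocytes. Over 16 pairs of class and library, log2(CPM + 10) of both genes gave a Pearson r of 0.96. These points share 2 libraries and their depths, and r is given as a description.

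*Treml4*, known to bind late apoptotic and necrotic cells, and *Cd300e*, an activating receptor that signals through DAP12, were highest in nonclassical monocytes, the patrolling monocytes of vessels. At steady state, 54 of the 55 *Cd300e* UMIs (98.2%) lay in the 12 nonclassical monocytes (3.92% of cells), which held 424 CPM (319 to 553) in 11 of 12 cells. The 14 classical monocytes held 1 UMI, and all other cells none. On AngII, nonclassical monocytes held 204 CPM of *Cd300e* (143 to 283) and 36 of 85 UMIs (42.4%), while making up 1.096% of cells. A further 25 of the AngII UMIs lay in cells of no class, and 1 lay in the 196 classical monocytes (0.740 CPM).

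For *Treml4*, nonclassical monocytes held 338 CPM (244 to 455) at steady state, with UMIs in all 12 cells, and 244 CPM (177 to 329) on AngII. Classical monocytes held 98.2 CPM (62.9 to 146) and 17.0 CPM (10.8 to 25.5). The ratio of nonclassical over classical monocytes was 3.44 (2.04 to 5.92) at steady state and 14.3 (8.45 to 24.9) on AngII. For *Cd300e* it was 104 (17.8 to 4168) and 276 (46.5 to 11203), each against 1 UMI. Log2(CPM + 10) of *Treml4* and *Cd300e* gave r = 0.90 over the same 16 points.

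Nonclassical monocytes were rich in most of the family. Against all other cells of their library, 10 of 10 members tested were at least 2-fold higher at steady state, where 11.2% of all genes were. On AngII it was 7 of 10, where 10.1% of genes were higher, and *Trem1*, *Cd300lf* and *Tyrobp* were not among them. The steady-state calls of *Trem1* and *Cd300lf* rested on 4 UMIs each in these monocytes. A gene was tested where it held at least 20 UMIs over both groups, and called from a ratio of 2, with no test behind the call. The median steady-state nonclassical monocyte held transcripts of 6 of the 9 receptors and the median macrophage of 2, at median depths of 9702 and 9541 UMIs. Steady-state classical monocytes and neutrophils held 5 each, and on AngII the median was 2 in all 4 of these groups.

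In classical monocytes, the inflammatory monocytes of blood, 8 of 10 members were higher and *Cd300e* lower than in all other cells at steady state, where 8.01% of genes were higher and 17.1% lower. *Trem3*, an activating receptor next to *Trem1*, was at 73.6 CPM (43.6 to 116) in classical and 78.5 CPM (37.7 to 144) in nonclassical monocytes at steady state. On AngII it was at 52.5 CPM in classical monocytes, 86.3 CPM in neutrophils and 102 CPM (60.5 to 161) in nonclassical monocytes. Neutrophils and nonclassical monocytes did not differ beyond their intervals for this gene. Against all other AngII cells, classical monocytes had *Trem3* (4.83) and *Trem1* (2.09) higher and *Cd300e* (0.147) lower, 3 of 10 members, where 3.17% of genes were higher and 16% lower. Macrophages held 0 UMIs of *Trem3* at steady state and 4.61 CPM (2.92 to 6.91) on AngII.

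**Figure D1:**
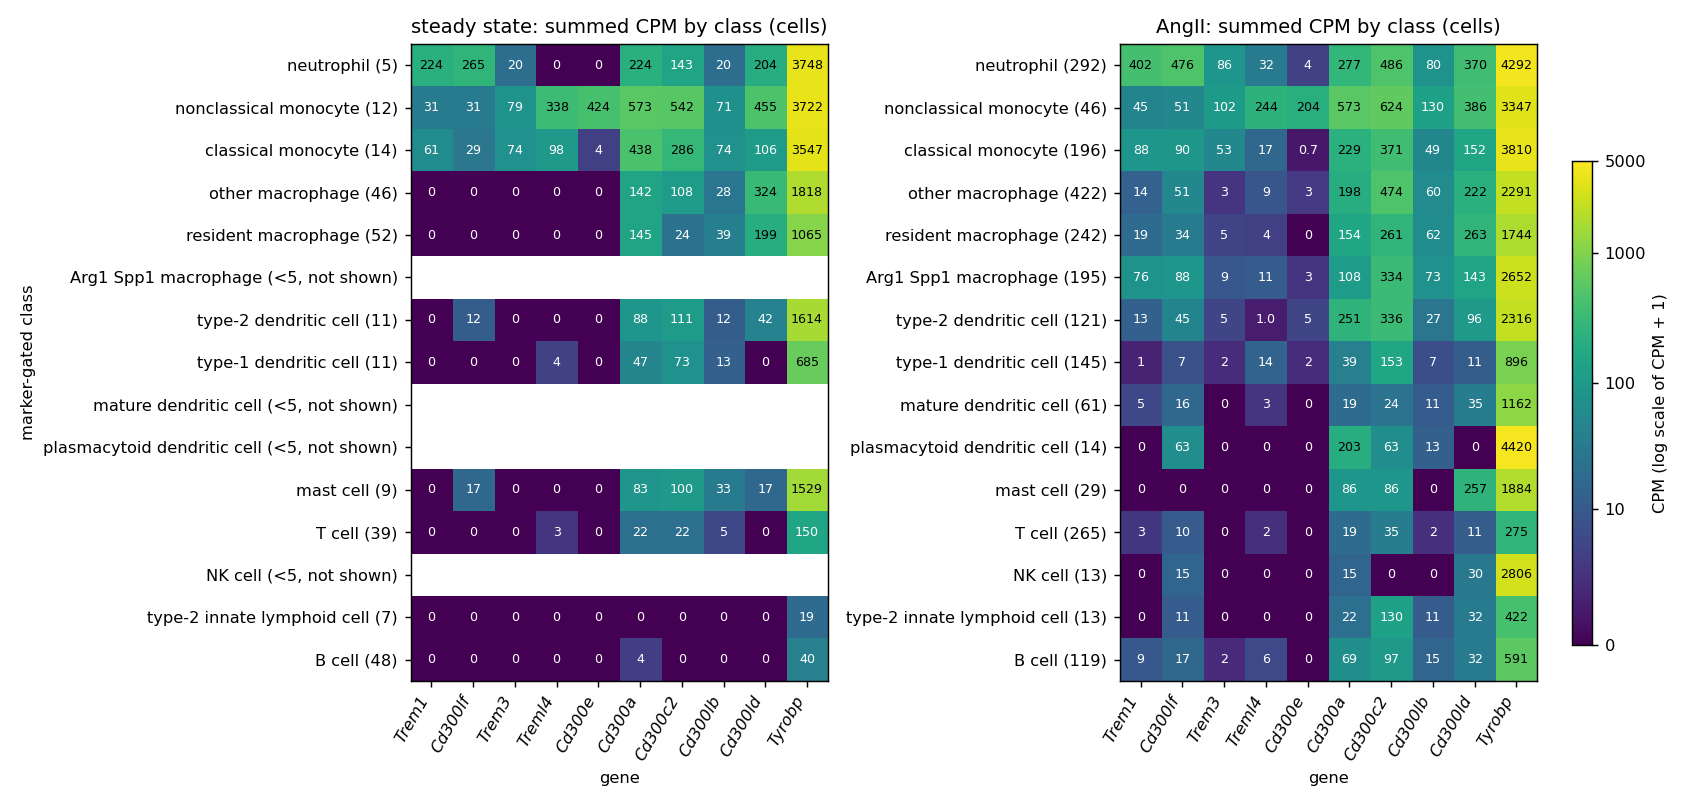
Summed CPM of each member (columns) in each marker-gated class (rows, with the number of cells) of the steady-state library (left) and the AngII library (right), with color on a log scale of CPM + 1 and classes under 5 cells left blank. *Trem1* and *Cd300lf* peak in neutrophils at 402 and 476 CPM on AngII, *Treml4* and *Cd300e* peak in nonclassical monocytes at 338 and 424 CPM at steady state, and 5 of the 10 columns are 0 in both steady-state macrophage classes.

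*Tyrobp*, the DAP12 adaptor shared by the activating receptors, was the most abundant member in each class of both libraries with at least 5 cells. It was at 3748, 3722 and 3547 CPM in steady-state neutrophils, nonclassical and classical monocytes, at 1818 CPM (1698 to 1943) in other macrophages, and at 1065 CPM (979 to 1156) in resident macrophages. On AngII the same 5 classes held 4292, 3347, 3810, 2291 (2233 to 2350) and 1744 CPM (1672 to 1818). Plasmacytoid dendritic cells, with 14 AngII cells, held 4420 CPM (3968 to 4909), an interval that overlaps that of neutrophils. NK cells, whose activating receptors also use DAP12, held 2806 CPM in 13 cells. CPM is not scaled by transcript length, and the 3′ libraries count 1 UMI per molecule.

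The 2 libraries differed in the transcripts found in cells that should lack them. B cells at steady state held 39.9 CPM of *Tyrobp*, in 16.7% of 48 cells at a median of 5567 UMIs, and B cells on AngII held 591 CPM, in 50.4% of 119 cells at a median of 3029 UMIs. *Lyz2*, a myeloid transcript, was at 61.7 and 2330 CPM in the same cells, and *S100a8*, a neutrophil transcript, at 0 and 61.4 CPM. AngII B cells also held 96.7 CPM of *Cd300c2*, 68.8 of *Cd300a*, 31.6 of *Cd300ld*, 16.7 of *Cd300lf*, 14.9 of *Cd300lb*, 9.30 of *Trem1* and 5.58 of *Treml4*. At steady state all of these were 0 in B cells except *Cd300a*, with 1 UMI. Levels in an AngII class near those of the B cells are not read as expression below.

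Of the 119 AngII B cells, 20 carried markers of another lineage as well. AngII T cells, at a median of 1339 UMIs, held less than B cells, with 275 CPM of *Tyrobp*, 35.2 of *Cd300c2*, 10.5 of *Cd300lf* (5.73 to 17.6) and 2.99 of *Trem1* (0.815 to 7.66). At steady state, 1 T cell of 31093 UMIs held 37 of the 55 *Tyrobp* UMIs of its class, all 8 of *Cd300a*, all 8 of *Cd300c2* and 367 of 398 *Lyz2* UMIs.

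Steady-state macrophages (99 cells, 9541 UMIs at the median) held a narrow set of the family. They had 0 UMIs of *Trem1*, *Trem3*, *Treml4*, *Cd300e* and *Cd300lf*, which allows up to 2.84 CPM of each and a UMI in up to 3.03% of cells. *Cd300ld*, a short-tailed receptor that signals through a partner, was at 325 CPM (275 to 380) in other macrophages, found in 84.8% of 46 cells, and at 199 CPM (163 to 240) in resident macrophages, found in 69.2% of 52 cells. Macrophages held 264 of the 487 *Cd300ld* UMIs (54.2%) of that library. Its ratio in other macrophages to all other cells was 3.09 (2.53 to 3.75), and *Cd300ld* was 1 of 10 members at least 2-fold higher there, where 9.4% of genes were. The inhibitory *Cd300a*, which binds phosphatidylserine and phosphatidylethanolamine, was at 142 and 145 CPM in the same classes, and *Cd300lb*, an activating receptor, at 27.6 and 39.0 CPM.

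*Cd300c2*, an activating receptor, separated the steady-state macrophage classes. It was at 108 CPM (80.5 to 142) in other macrophages, found in 47.8% of cells, and at 24.2 CPM (12.9 to 41.3) in resident macrophages, found in 15.4% of cells. Nonclassical and classical monocytes held 542 CPM (422 to 686) and 286 CPM (223 to 362). Among these 4 classes the order was nonclassical monocytes, classical monocytes, other macrophages and resident macrophages, and the intervals of neighbours did not overlap.

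AngII and steady state were then compared, first over all filtered cells. *Trem1* was at 8.22 CPM at steady state and 45.6 CPM on AngII, a ratio of 5.55 (3.86 to 8.28). *Cd300lf* was at 7.95 and 65.9 CPM, a ratio of 8.28 (5.74 to 12.4), and *Cd300c2* at 88.5 and 298 CPM, a ratio of 3.36 (3.01 to 3.78). *Cd300e* was at 15.1 and 4.72 CPM, a ratio of 0.313 (0.220 to 0.448). These were the 3 members called higher and the 1 called lower of 10 tested, where 6.56% of all genes were higher and 9.82% lower.

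The makeup of the libraries differed as well. Neutrophils were 1.63% (0.533 to 3.77%) of steady-state cells and 6.96% (6.204 to 7.77%) of AngII cells, and nonclassical monocytes were 3.92% (2.04 to 6.75%) and 1.096% (0.803 to 1.46%). These are shares of all filtered cells, of which 14.7% at steady state and 48.2% on AngII reached no class. The intervals do not cover that difference. Ratios over all cells mix such shares with levels per cell. *Trem1* and *Cd300lf*, highest in neutrophils, were higher over all cells, and *Cd300e*, highest in nonclassical monocytes, was lower. *Tyrobp* was at 1370 and 2141 CPM, a ratio of 1.56 (1.52 to 1.61), and *Cd300ld* had a ratio of 1.09 (0.988 to 1.20).

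Within classes, *Cd300c2* was the member with the clearest difference in macrophages. In resident macrophages it was at 24.2 CPM at steady state and 261 CPM (234 to 291) on AngII, a ratio of 10.8 (6.23 to 20.5). In other macrophages it was at 108 and 474 CPM (448 to 501), a ratio of 4.38 (3.31 to 5.92). Both AngII levels were above the 96.7 CPM of AngII B cells, and with the B-cell level of each library subtracted the ratios were 6.80 and 3.49. With classes taken from clusters they were 4.43 and 3.20. The AngII cluster named for resident macrophages held 340 cells, and 22 of its 76 gated cells were gated to that class. The 4.43 thus rests largely on AngII cells outside the gated class and cannot serve as a check of it. With cells thinned to 500 UMIs, resident macrophages held 35 AngII and 0 steady-state UMIs, a ratio of at least 2.51. In monocytes the ratios were smaller, 1.29 (1.01 to 1.69) in classical and 1.15 (0.845 to 1.58) in nonclassical monocytes, and below 1 with the B-cell level subtracted (0.956 and 0.973). The resident class also differed between steady state and AngII in its held-back markers. *Cd209f* was at 1102 and 197 CPM, *Timd4* at 236 and 32.3, *Pf4* at 3968 and 2341, and *Mrc1* at 2938 and 2293. *Stab1* was at 829 and 966 CPM. The part of this difference in the ratio of 10.8 was not tested.

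The share of cells with *Cd300c2* followed the level once depth was made equal. With each cell thinned to 500 UMIs, which left out no gated cell of these classes, 1.02% of steady-state and 11.2% of AngII resident macrophages held a UMI, against 15.4% and 39.7% at full depth. For other macrophages it was 4.81% and 20.1%, against 47.8% and 60.4%. AngII B cells held one in 4.99% of cells at 500 UMIs, below both AngII macrophage classes.

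*Trem1* and *Cd300lf*, at 0 in steady-state macrophages, were at low levels in AngII macrophages. *Cd300lf* was at 33.9 CPM (24.5 to 45.7) in resident, 50.9 CPM (42.6 to 60.4) in other and 87.9 CPM in Arg1 Spp1 macrophages, at least 6.08-fold and 8.01-fold higher than at steady state in the first 2. These bounds take 3 UMIs for the group at 0. *Trem1* was at 18.9 CPM (12.1 to 28.2), 13.8 CPM (9.66 to 19.1) and 76.2 CPM (60.9 to 94.3), at least 3.39-fold and 2.17-fold higher. AngII B cells held 16.7 CPM of *Cd300lf* (7.65 to 31.8) and 9.30 CPM of *Trem1* (3.02 to 21.7). The *Trem1* intervals of resident and other macrophages and the *Cd300lf* interval of resident macrophages overlap those of the B cells, so the values are not read as expression. None of these 3 intervals overlaps that of the AngII T cells. Those of Arg1 Spp1 macrophages for both genes, and of other macrophages for *Cd300lf*, do not. Part of the *Trem1* calls also rested on few cells: without the cell with most UMIs the bound in other macrophages was 1.82, and with the B-cell level subtracted that in resident macrophages was 1.73.

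Neutrophil transcripts moved with both genes. *S100a8* was at 0 CPM in resident and other macrophages at steady state, and at 250 and 121 CPM on AngII, with 439 CPM in Arg1 Spp1 macrophages. In AngII neutrophils 34.4 *S100a8* UMIs were found for each *Cd300lf* UMI, against 7.37 in resident, 2.38 in other and 5 in Arg1 Spp1 macrophages. For *Trem1* these numbers were 40.7, 13.2, 8.81 and 5.76. Both genes were more frequent per *S100a8* UMI in each AngII macrophage class than in neutrophils. *S100a8* is itself one of the marker genes that placed cells among neutrophils. A high number in that class therefore follows in part from the way the class was made, and no conclusion is drawn from it. In B cells the numbers were 3.67 and 6.60, from 9 and 5 UMIs, and in T cells 9.29 and 32.5, from 14 and 4 UMIs. The part of free RNA in these values was not tested.

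Within the AngII library, Arg1 Spp1 macrophages had none of 10 members called against all other cells, where 4.18% of genes were higher and 12% lower. Resident macrophages had 5 of 10 lower and none higher, *Trem1*, *Trem3*, *Treml4*, *Cd300e* and *Cd300lf*, where 10.5% of genes were lower and 8.71% higher. Other macrophages had *Trem1* and *Trem3* lower, where 12.8% of genes were lower and 4.12% higher.

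Of the 9 members tested over all macrophages, *Trem1* (at least 10.2-fold), *Cd300lf* (at least 19.3-fold), *Treml4* (at least 2.82-fold) and *Cd300c2* (6.03, 4.74 to 7.80) were higher on AngII and none lower, where 10.3% of genes were higher and 9.14% lower. For *Treml4* the AngII level was 8.01 CPM (5.72 to 10.9), near that of B cells. The AngII macrophages include 195 Arg1 Spp1 cells, against 1 at steady state. In resident macrophages alone the count was 3 higher and 0 lower of 7, where 9.3% and 6.05% of genes were called. In other macrophages it was 4 and 0 of 8, where 11.5% and 9.36% were called, the fourth being *Cd300lb* at 27.6 and 59.7 CPM (2.17, 1.23 to 4.16), 1.63 with the B-cell level subtracted and 1.09 with cells thinned to 500 UMIs, from 10 UMIs against 1.

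*Tyrobp*, *Cd300a* and *Cd300ld* stayed under a ratio of 2 in both macrophage classes. *Tyrobp* had ratios of 1.64 (1.49 to 1.80) in resident and 1.26 (1.17 to 1.36) in other macrophages, with AngII B cells at 591 CPM. *Cd300a* had 1.06 (0.812 to 1.40) and 1.40 (1.08 to 1.83). *Cd300ld* was the only member whose ratio pointed in opposite directions in the 2 classes with intervals that leave out 1: it was 1.32 (1.06 to 1.66) in resident and 0.685 (0.572 to 0.823) in other macrophages. Over 13 alternatives the ratio in resident macrophages ran from 0.824 to 1.83, on both sides of 1, and that in other macrophages from 0.587 to 0.767.

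**Figure D2:**
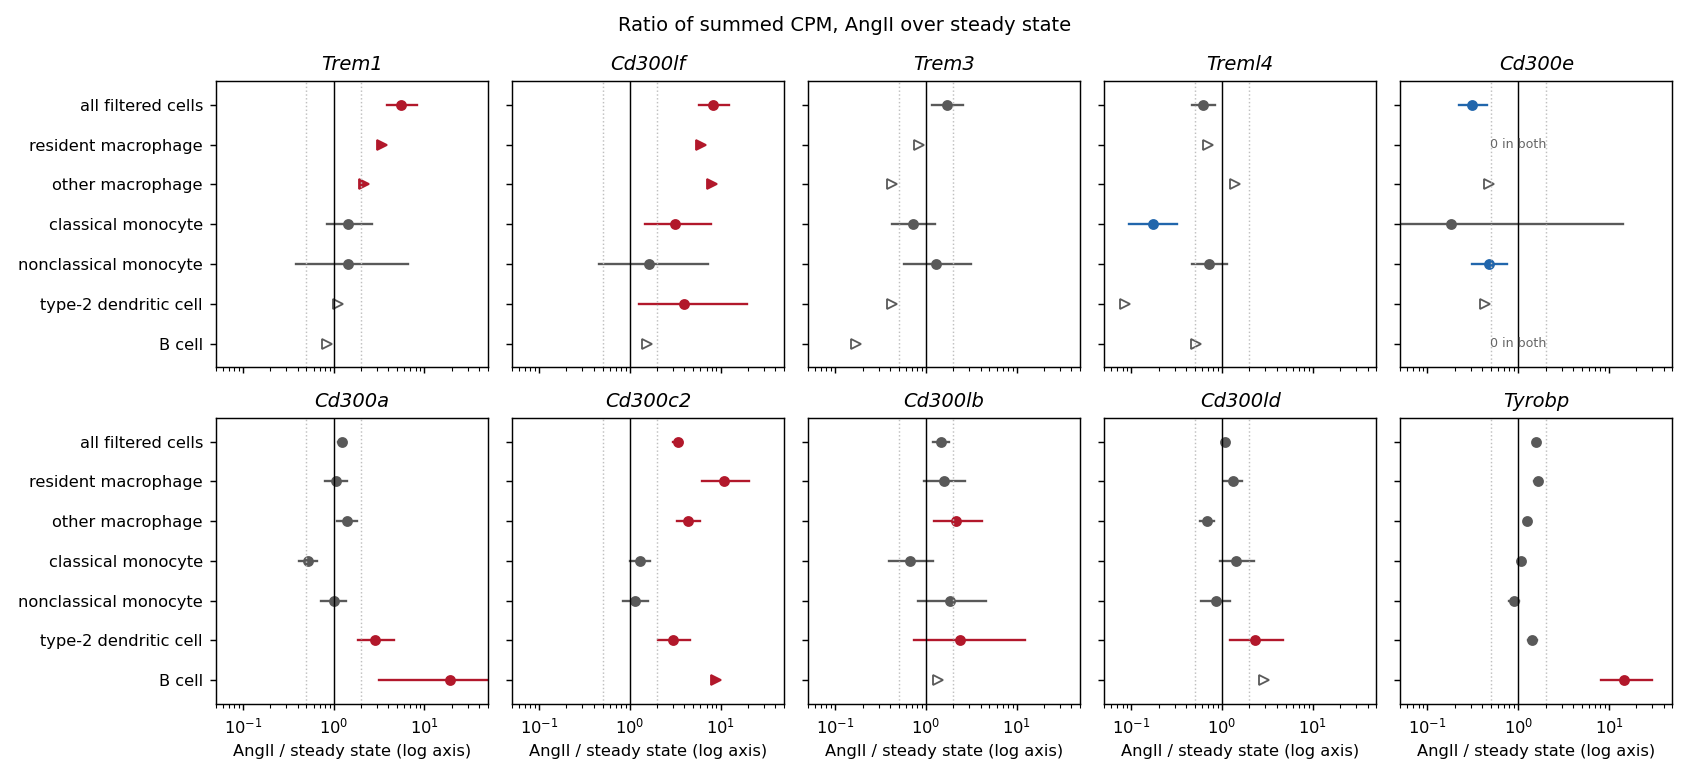
Ratio of summed CPM, AngII over steady state (x axis, log scale), for each member in all filtered cells and in 6 classes (rows). Points are ratios with exact 95% intervals, open or filled triangles are lower bounds against a group at 0, red marks a call of 2-fold higher and blue of 2-fold lower, and dotted lines stand at a ratio of 2 and its inverse. *Cd300c2* is at 10.8 in resident and 4.38 in other macrophages but near 1 in both monocyte classes.

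In monocytes fewer members were called. In classical monocytes *Treml4* was at 98.2 CPM at steady state and 17.0 CPM on AngII, a ratio of 0.173 (0.0935 to 0.321), and the largest steady-state cell held 8 of its 24 UMIs. *Cd300lf* was at 28.6 and 89.5 CPM there, a ratio of 3.13 (1.47 to 7.94), which was 1.92 with classes taken from clusters. These were the 1 member lower and 1 higher of 9 tested, where 8.69% and 11.9% of genes were called. *Cd300a*, at 438 and 229 CPM, had a ratio of 0.522 (0.418 to 0.657) and was not called.

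In nonclassical monocytes *Cd300e* was at 424 and 204 CPM, a ratio of 0.482 (0.307 to 0.748), the only member called of 8 tested, where 8.74% of genes were lower and 7.88% higher. With a stricter gate score of 1 this ratio was 0.978, and it was not called either among cells with at least 1000 genes. *Cd300a* was at 573 CPM in both libraries, a ratio of 0.999 (0.732 to 1.37). The 12 steady-state and 46 AngII cells limit all of these values.

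Type-2 dendritic cells, which present antigen to helper T cells, held more of several CD300 receptors on AngII. *Cd300a* was at 88.2 and 251 CPM (2.85, 1.86 to 4.58), *Cd300c2* at 111 and 336 CPM (3.02, 2.06 to 4.58), and *Cd300ld* at 42.2 and 96.2 CPM (2.28, 1.22 to 4.72). *Cd300lf* (3.93) and *Cd300lb* (2.39) were also called, each against 3 steady-state UMIs, with intervals of 1.26 to 19.7 and 0.738 to 12.3. The count was 5 higher and 0 lower of 6, where 12.5% and 6.96% of genes were called, with 11 steady-state cells, and 69 of the 121 AngII cells lay near the gate cut. AngII B cells held 96.7 CPM of *Cd300c2*, 68.8 of *Cd300a*, 31.6 of *Cd300ld*, 16.7 of *Cd300lf* and 14.9 of *Cd300lb*, and the AngII interval of *Cd300lb* in type-2 dendritic cells (18.3 to 39.7) overlaps that of B cells (6.42 to 29.3). Type-1 dendritic cells, which cross-present antigen to killer T cells, had 2 of 4 members higher, where 13.7% of genes were. None was lower, where 7.12% of genes were. They were *Treml4* (3.26, 0.524 to 135, against 1 UMI) and *Cd300c2* (2.10, from 72.8 to 153 CPM). The AngII *Treml4* level, 14.0 CPM (8.64 to 21.3), overlaps that of B cells (1.15 to 16.3), and the gap between 153 CPM and the 96.7 CPM of *Cd300c2* in B cells is smaller than the steady-state level.

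In neutrophils the 5 steady-state cells allowed ratios of 1.79 (0.990 to 3.62) for *Trem1* and 1.80 (1.04 to 3.40) for *Cd300lf*, neither called. *Cd300c2* was at 143 and 486 CPM (3.41, 1.64 to 8.52) and was 1 of 3 members called of 9 tested, with *Trem3* and *Cd300lb* at 1 steady-state UMI each, where 13.9% of genes were higher. In B cells *Tyrobp* (14.8, 8.16 to 30.0), *Cd300a* (19.0, 3.20 to 769, against 1 UMI) and *Cd300c2* (at least 8.88-fold) were all called higher, 3 of 3 tested, where 10.5% of genes were higher and 6.17% lower. In T cells none of 3 members tested was called, where 19.7% of genes were higher and 6.57% lower.

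**Figure D3:**
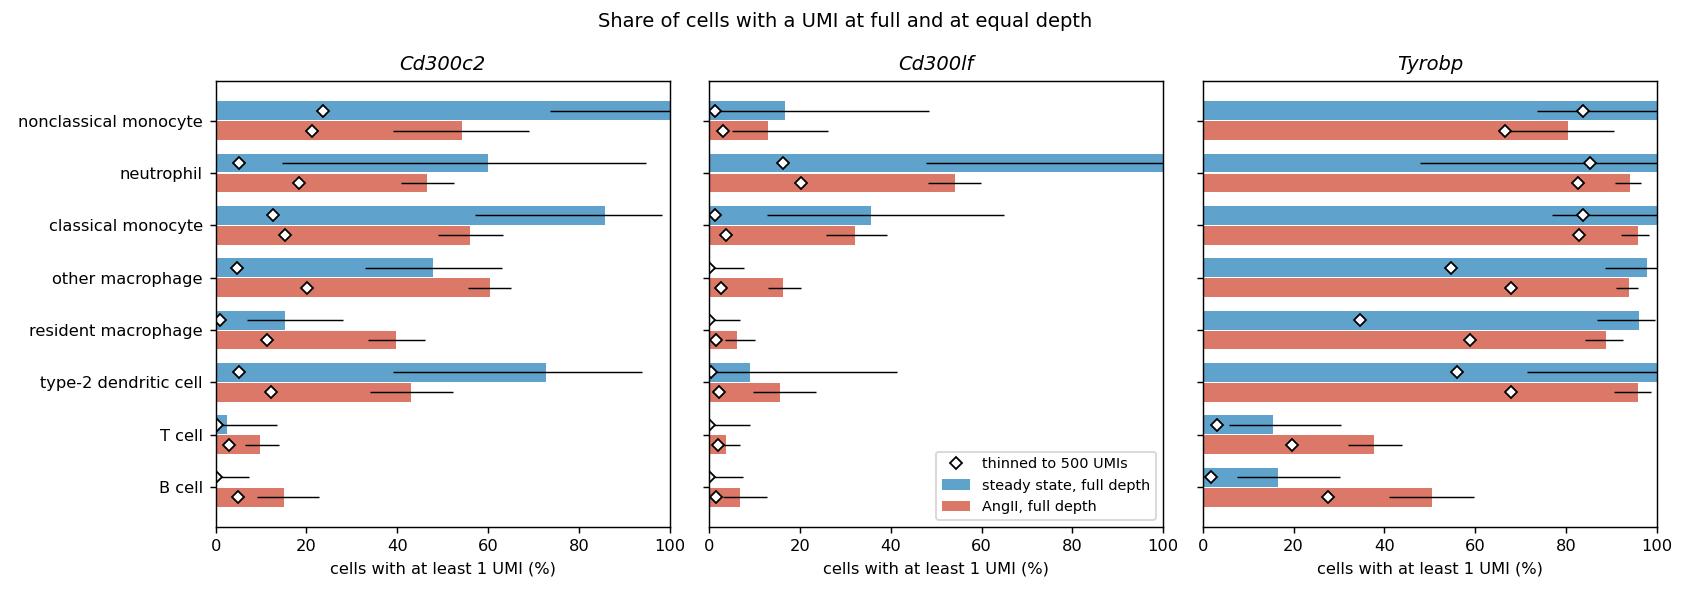
Share of cells with at least 1 UMI (x axis, %) of *Cd300c2*, *Cd300lf* and *Tyrobp* in 8 classes (rows) of the steady-state (blue) and AngII (red) library. Bars are shares at full depth with exact 95% intervals, and diamonds are shares with each cell thinned to 500 UMIs. At full depth *Cd300c2* was in 15.4% of steady-state and 39.7% of AngII resident macrophages, and at 500 UMIs in 1.02% and 11.2%, with AngII B cells at 4.99%.

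The lineage reporter was compared next, since the study used it to mark macrophages of yolk-sac origin. A macrophage was called *Yfp*+ from 1 reporter UMI, which gave 77 *Yfp*+ and 22 *Yfp*− macrophages at steady state and 200 and 659 on AngII. *Yfp*+ cells were deeper, with medians of 10720 against 6500 UMIs and 8055 against 1404 UMIs, and more often resident on AngII, at 38.5% against 25.0%. Reporter UMIs were found in 77.8% of steady-state and 23.3% of AngII macrophages, against 0 of 48 and 5.04% of B cells and 7.69% and 1.89% of T cells. With cells thinned to 500 UMIs the shares on AngII were 5.54% in macrophages, 0.902% in B cells and 0.575% in T cells. The part of depth and of free reporter RNA in the *Yfp*+ calls was not tested further.

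At steady state none of 5 members tested was called over all macrophages, where 10.1% of genes were higher and 5.53% lower in *Yfp*+ cells. Among resident macrophages alone (42 and 10 cells), *Tyrobp* was at 1137 CPM in *Yfp*+ and 401 CPM in *Yfp*− cells, a ratio of 2.84 (1.84 to 4.62) against 21 UMIs. *Cd300lb* was also called there, at 2.16 (0.345 to 89.5) against 1 UMI, and 16.2% of genes were. In other macrophages *Tyrobp* had a ratio of 0.960 (0.808 to 1.15), and none of 4 members was called, where 11.1% of genes were higher and 4.26% lower.

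On AngII, *Trem1* was at 14.5 CPM in *Yfp*+ and 41.2 CPM in *Yfp*− macrophages, a ratio of 0.352 (0.231 to 0.523). It was the only member called of 9 tested, where 2.89% of genes were lower and 2.66% higher. In other macrophages alone the ratio was 0.354 (0.152 to 0.759), from 10 and 26 UMIs, the 1 call of 8 members, at a level that overlaps that of B cells, where 1.72% of genes were lower and 2.2% higher. In resident macrophages it was 1.22 (0.491 to 3.28), from 16 and 8 UMIs. Arg1 Spp1 macrophages, the macrophage class with the highest *Trem1* level, were 195 of the 859 cells and held 85 of the 145 *Trem1* UMIs. Of the 200 *Yfp*+ cells, 77 were resident and 109 other macrophages, and of the 659 *Yfp*− cells 165 and 313. The rest of each group, a smaller part of the *Yfp*+ cells, were Arg1 Spp1 macrophages. The part of this makeup in the ratio over all macrophages was not tested.

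*Cd300lf* was at 39.6 and 67.7 CPM, a ratio of 0.585 (0.449 to 0.756), and was not called. Its ratios within classes lay on both sides of 1: 2.66 (1.21 to 6.64) in resident macrophages, from 35 and 8 UMIs, where 3.83% of genes were higher and 1.99% lower, and 0.503 (0.345 to 0.726) in other macrophages. A single resident macrophage held 12 of the 43 UMIs. *Tyrobp*, *Cd300a*, *Cd300c2*, *Cd300lb* and *Cd300ld* all lay between 0.860 and 1.15 over all AngII macrophages.

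**Figure D4:**
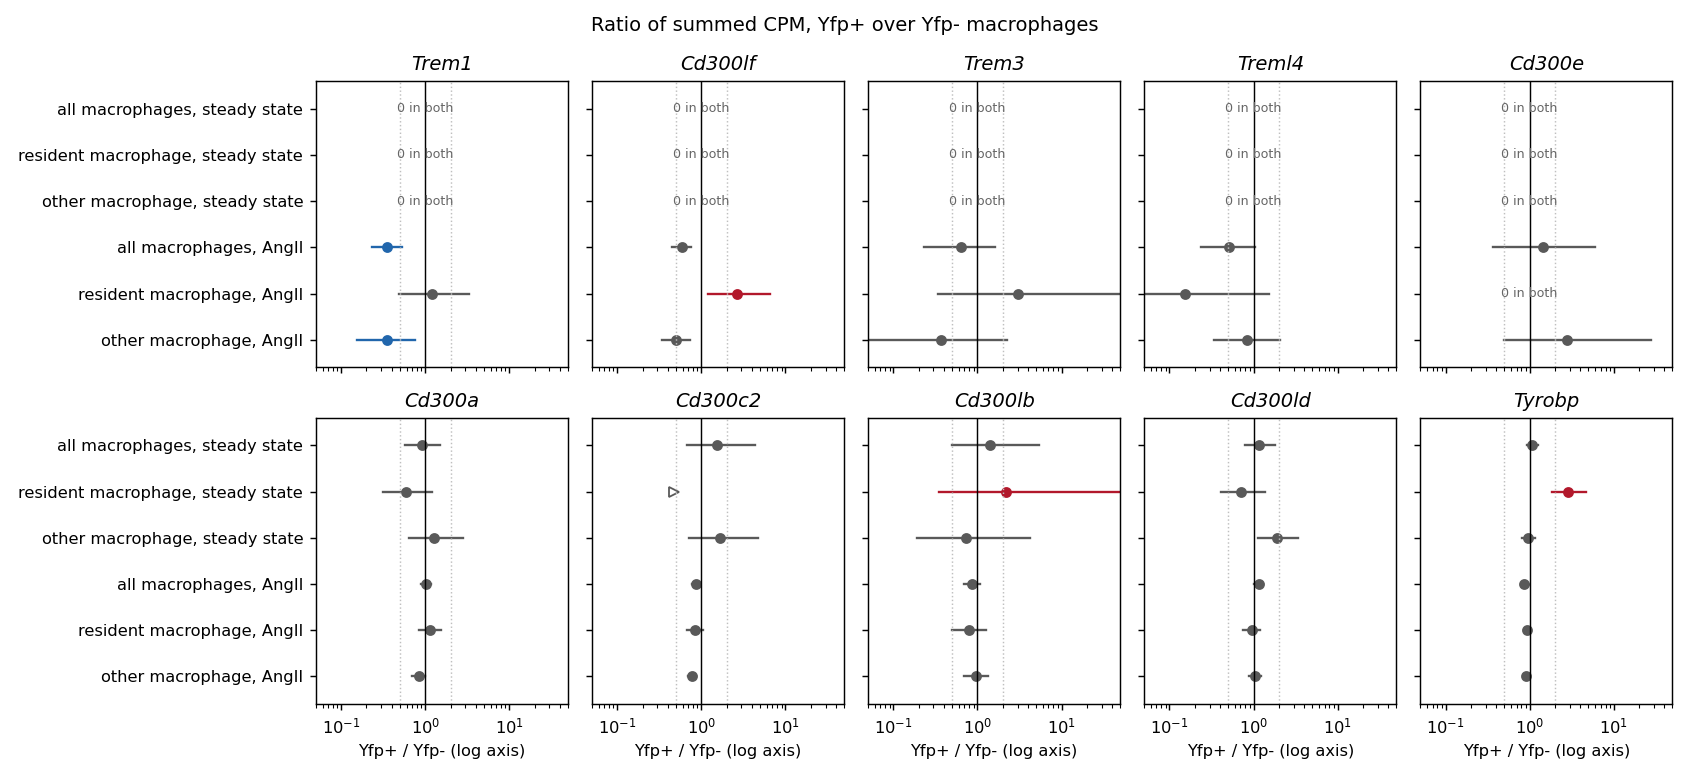
Ratio of summed CPM, *Yfp*+ over *Yfp*− macrophages (x axis, log scale), for each member over all macrophages and in 2 macrophage classes of each library (rows). Points are ratios with exact 95% intervals, triangles are lower bounds, red and blue mark calls of 2-fold higher and lower. *Trem1* on AngII is at 0.352 over all macrophages, and 5 members are at 0 in both groups at steady state.

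Genes around the receptors were followed as a list of 46 genes: other family members, adaptors, kinases, phosphatases, further partners of DAP12 and protein ligands. *Siglech*, *Apoe*, *Klra8*, *Cd247* and *Klrk1* of this list are also markers of cell classes. Over all cells 41 were tested, and 6 were higher and 4 lower on AngII, where 6.56% and 9.82% of all genes were. Over all macrophages 36 were tested, and 13 were higher and 2 lower, where 10.3% and 9.14% of all genes were. Of 9 further receptors that pair with DAP12 tested there, 5 were higher and 1 lower. In resident macrophages alone 6 of 29 genes were higher and 3 lower, where 9.3% and 6.05% of all genes were. Of the 5 DAP12 partners tested there, 1 was higher and 3 lower. In other macrophages 12 of 33 genes were higher and 2 lower, where 11.5% and 9.36% were. Of 8 DAP12 partners there, 4 were higher and 1 lower.

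Among receptors, *Trem2*, a lipid receptor of tissue macrophages, was at 161 CPM in steady-state and 390 CPM in AngII macrophages, a ratio of 2.42 (2.07 to 2.85), and at 2.33 (1.81 to 3.04) in resident macrophages alone. *Treml2* was at 0 and 15.4 CPM in macrophages, below the 70.7 CPM of AngII B cells. Steady-state B cells held 101.7 CPM of it, so B cells give no background level for this gene. *Sirpb1c* and *Sirpb1b*, DAP12-coupled receptors of the SIRP family with closely related sequences, were at 0.948 and 98.1 CPM and at 0 and 30.2 CPM. *Cd200r4* was at 3.79 and 10.4 CPM, a ratio of 2.75 (1.01 to 10.5) against 4 UMIs.

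*Siglech* pairs with DAP12 and is known from plasmacytoid dendritic cells and from some tissue macrophages. It went the other way: steady-state macrophages held 214 UMIs (203 CPM) and AngII macrophages 6 UMIs (1.20 CPM), a ratio of 0.00592 (0.00215 to 0.0131). The ratio was 0.0272 (0.00859 to 0.0662) in resident macrophages alone. *Cd300ld3*, a close relative of *Cd300ld*, was the other gene lower over all macrophages, at 15.2 and 3.60 CPM (0.238, 0.114 to 0.498).

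Of the 12 kinases and relays below ITAM adaptors, 4 were higher in AngII macrophages and 0 lower, beside the 10.3% and 9.14% of all genes given above. Among them, the Src-family kinase *Fgr* was at 0 and 81.7 CPM, at least 28.7-fold higher. *Vav1*, an exchange factor, was at 41.7 and 84.1 CPM (2.02), and *Card9*, an adaptor of NF-κB signaling, at 9.48 and 21.8 CPM (2.30). Among the 6 phosphatases and brakes, *Dok3* was at 36.0 and 74.9 CPM (2.08, 1.49 to 2.99). Of the ligands, *Pglyrp1*, a ligand of TREM-1 held in neutrophil granules, was at 0 and 12.2 CPM in macrophages, below the 80.0 CPM of AngII B cells. Steady-state B cells held 50.8 CPM of it, so they give no background level for this gene either. In classical monocytes it was at 192 and 33.3 CPM (0.173, 0.112 to 0.266).

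Genes with the most similar pattern to each member were ranked over the same 16 points among 8372 genes. *Trem1* was most like *Upp1* (r = 0.96), *Hcar2* (0.93) and *Fpr2* (0.93), and *Cd300lf* most like *Msrb1* (0.94), *Tgm2* and *Slc16a3* (0.93 each). *Tyrobp* was most like *Ifitm2* (0.98), *Fcer1g* (0.97), the other ITAM adaptor of myeloid cells, and *Socs3* (0.96). *Cd300ld* was most like *Pla2g7* (0.96), *Lilrb4a* (0.96) and *Cebpd* (0.95). These genes were named by a fixed rule on r and are a description. *Hcar2* was also one of the markers held back for checking the neutrophil class.

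Of the remaining members, *Cd300a* was most like *Clec4a1* (0.94), *Igsf6* (0.94) and *Clec4a3* (0.93), and *Cd300c2* most like *Cx3cr1* (0.93), *Myo1f* and *Tifab* (0.91 each). *Cd300lb* was most like *Plod3* (0.94), *Sqor* (0.94) and *Lair1* (0.93). *Trem3* was most like *Cdk2ap2* (0.92), *Id1* (0.91) and *Fpr2* (0.90). *Treml4* was most like *Tmem38b* (0.90), *Nxpe4* (0.89) and *Zfyve9* (0.86), and *Cd300e* most like *Rap1gap2* (0.85), *Serpinb10* (0.83) and *Apbb1ip* (0.80). The r of *Cd300e* were the lowest of the 10 members.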

How the data were processed

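CD45-positive adventitial cells of each condition were profiled as 1 library of droplet 3′ RNA-seq. Per the labels, the study's methods and the file headers, the authors ran Cell Ranger 3.1.0 on the GRCm38.p6 genome, annotated by GENCODE M24 and extended by eYFP. The deposited values are raw UMI counts of filtered barcodes. The study's cell filter (300 to 6500 genes, at most 5% mitochondrial UMIs) was applied. Each cell was scored over 89 gate genes of 17 classes as the mean log2 of (cell CPM + 200) over (library CPM + 200), and joined the highest class with at least 2 markers and a score of 0.5. The scoring was settled after the data were seen, and the members and lists were chosen with earlier results of these data known. Doublets were not called, and cells with markers of 2 lineages were left out as an alternative. UMIs were summed per class, with exact Poisson, conditional and Clopper-Pearson intervals. A gene with at least 20 UMIs over both groups was called at a ratio of 2. A group at 0 was set to 3 UMIs. All members were named, with up to 4 called pathway genes per role and the 3 genes of highest r per member among genes with at least 200 UMIs. Gate genes and members were left out of that ranking, while markers held back for checking were kept. With 1 library per condition no p-value exists. Alternatives, some chosen after seeing the data, changed depth, filters, gate, averaging and background. Some results for single genes are not reported here. The statistics were tested on simulated data. Python 3.11.15, numpy 2.4.6, scipy 1.17.1, pandas 2.3.3, scanpy 1.11.5 and matplotlib 3.10.9 were used.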

Additional observations from a re-analysis of the deposited data

Results flagged for a closer look

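The AngII to steady-state ratio of *Treml4* lay on opposite sides of 1 in 2 classes. It was 3.26 in type-1 dendritic cells, from 21 AngII UMIs against 1 steady-state UMI at an AngII level of 14.0 CPM (8.64 to 21.3) that overlaps that of AngII B cells (1.15 to 16.3), and 0.173 in classical monocytes, from 23 against 24 UMIs. With 1 library per condition the difference between the classes was not tested.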

How the results depend on the processing

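No paired analysis was possible because each condition was 1 library. Of the 138 values that summarise a comparison under an alternative, 103 stayed within 1.5 times the main count and 35 did not. Over all cells, 3 members higher became 6 when cells were thinned to 1000 UMIs, and 1 lower became 0 at 500 UMIs and 2 with the B-cell level subtracted. Within the macrophage and monocyte classes, 8 higher became 3 at 500 UMIs, 5 with at least 50 UMIs and 5 with the B-cell level subtracted. There, 2 lower became 1 with at least 1000 genes, 5 with the mean of cell CPM, 0 at 1000 and at 500 UMIs, 1 with at least 50 UMIs, 4 at a gate score of 0, 1 at a gate score of 1 and 4 with the B-cell level subtracted. The members highest in AngII neutrophils were 3, and 10 with at least 1000 genes, 5 at 1000 UMIs, 7 with classes taken from clusters, 5 without the cell with the most UMIs and 6 at a gate score of 0. For AngII nonclassical monocytes, 7 became 0 with at least 1000 genes, 4 at 500 UMIs, 0 from clusters and 4 at a gate score of 0. No cluster took the name of nonclassical monocytes, so that class was absent from the cluster ranking. Only classes of at least 20 cells were ranked in these settings. Nonclassical monocytes were 46 AngII cells before the filter of 1000 genes. For steady-state other macrophages, 3 became 1 from clusters and 0 when classes of 5 cells were ranked. In AngII *Yfp*+ macrophages, 1 lower became 2 over all barcodes, 3 with the mean of cell CPM, 2 at 1000 UMIs, 0 at 500 UMIs, 5 from clusters, 2 without cells of mixed lineage and 2 without the top cell. At steady state, 0 higher became 1 with the mean of cell CPM, without the top cell and at a gate score of 1. Beyond the class absent from the clusters, the cause of these changes was not tested. *Trem1* and *Cd300lf* were highest in AngII neutrophils under 12 of 12 alternatives. The ratio of *Cd300c2* stayed called in resident (2.51, a lower bound at 500 UMIs, to 12.7) and other macrophages (3.20 to 6.92). The ratio of *Cd200r3* over all cells, 0.384, was 1.59 at 1000 UMIs. Depth limits shares of cells on AngII, where 1910 of 4198 cells held under 1000 UMIs, and the steady-state monocyte, dendritic cell and neutrophil classes of 5 to 14 cells limit every ratio against them.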

Other observations

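Over all cells, the listed pathway genes higher on AngII were *Trem2* (2.74), *Cd300c* (2.38, against 4 UMIs), *Fgr* (2.06), *Sirpb1b* (3.23), *Sirpb1c* (4.28) and *Klra8* (at least 2.77-fold). Those lower were *Siglech* (0.245), *Cd300ld3* (0.309), *Cd200r3* (0.384) and *Cd247* (0.444), the zeta chain of the T cell receptor complex. In classical monocytes *Clec5a*, a DAP12-coupled lectin receptor, was at 28.6 CPM at steady state and 67.3 CPM on AngII (2.35, 1.096 to 6.01).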
